A study of Mus musculus with 6 samples.

Results

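The S100 genes encode a family of small calcium-binding proteins, and 10 of them (S100a1, S100a3, S100a4, S100a6, S100a8, S100a10, S100a11, S100a13, S100a16 and S100b) were followed in 2 mouse melanoma lines. The genes were given as a list of symbols, and every probe whose accession belongs to one of them was taken, 13 of the 39429 probes of the array, for 10 of its 20659 named genes. B16-F1 comes from the B16 tumour, which arose in C57BL/6 mice. D5.1G4 is the reference line of the series text, and the title presents the melanomas as differing in tumorigenicity. Both were left untreated: 1000000 cells were plated, grown for 24 h in RPMI-1640 (10% FBS) and collected, at a confluence between 75% and 95%. Each line has 3 Agilent mouse expression arrays of one colour. Each group is a single cell line, and the labels do not say whether its 3 replicates were separate cultures, so p-values measure the spread between these samples alone, and that spread may be technical.

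S100 proteins carry a pair of EF-hand calcium-binding loops, act mostly as dimers and expose a binding face for other proteins when calcium rises. They have no enzyme activity of their own: inside the cell they bind annexins, cytoskeletal proteins and regulators such as p53, and some are released and act on receptors such as RAGE. S100B is a long-used marker of melanocytic tumours, and most other S100 genes lie in a cluster beside the genes of the epidermal differentiation complex.

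Where the transcripts of these 10 S100 genes differed, they were lower in B16-F1 than in D5.1G4. The genes were chosen with earlier results of these data known. S100a2 and S100a5, the S100 genes tested outside these 10, had differences above 0 (0.33 and 0.07), and neither was called. Of the 10 genes 9 were well above background and were tested, 2 were called lower in B16-F1 (S100b, 3.80-fold, and S100a11, 2.23-fold) and 0 higher, and all 9 differences (B16-F1 minus D5.1G4) were below 0, with a median of -0.69 on the log2 scale. A gene was called where it differed by 2-fold or more and its adjusted p did not exceed 0.05. Over all 18454 features tested 15.2% were called, 8.9% lower and 6.28% higher in B16-F1, 50.3% had a difference below 0 and the median difference was -0.0041. With adjusted p alone and no minimum fold, 7 of the 9 genes passed (S100b, S100a11, S100a6, S100a16, S100a10, S100a13 and S100a1), against 34.9% of all features. For those 7 genes the lines did not overlap, with all B16-F1 values below all D5.1G4 values, as for 28.5% of the features measured on all 6 arrays; in either direction 50.7% of those features did not overlap. Adjusted p-values here are from limma's moderated test, 2-sided, adjusted by the Benjamini-Hochberg method over all features or all probes tested, with n = 3 arrays in each line.

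Levels are given as log2 of the processed signal minus the 75th percentile of the array, so that 0 is the signal that 25% of the spots exceed. Levels of different probes are not compared, since each probe has its own response. Bright features as a whole leaned the same way as the S100 genes: of the 4702 features with a mean level above 2, 65.1% had a difference below 0, with a median of -0.18, and 5.57% were called. The 5 S100 genes in that range (S100a1, S100a10, S100a11, S100a13 and S100b) had a median of -0.70, and the part of brightness in it was not tested. Dim features leaned the other way. Of the 3496 features with a mean level between -4 and -2, 44.0% had a difference below 0, with a median of 0.11, and 22.3% were called. S100a3, S100a4 and S100a6 lay between these levels. The share of spots well above background ran from 53.4% to 62.0% per array, highest on B16-F1 replicates 2 and 3, the only arrays of the first of 3 scan times. The second scan time held B16-F1 replicate 1 with D5.1G4 replicates 2 and 3, and D5.1G4 replicate 1 was scanned alone.

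**Figure D1:**
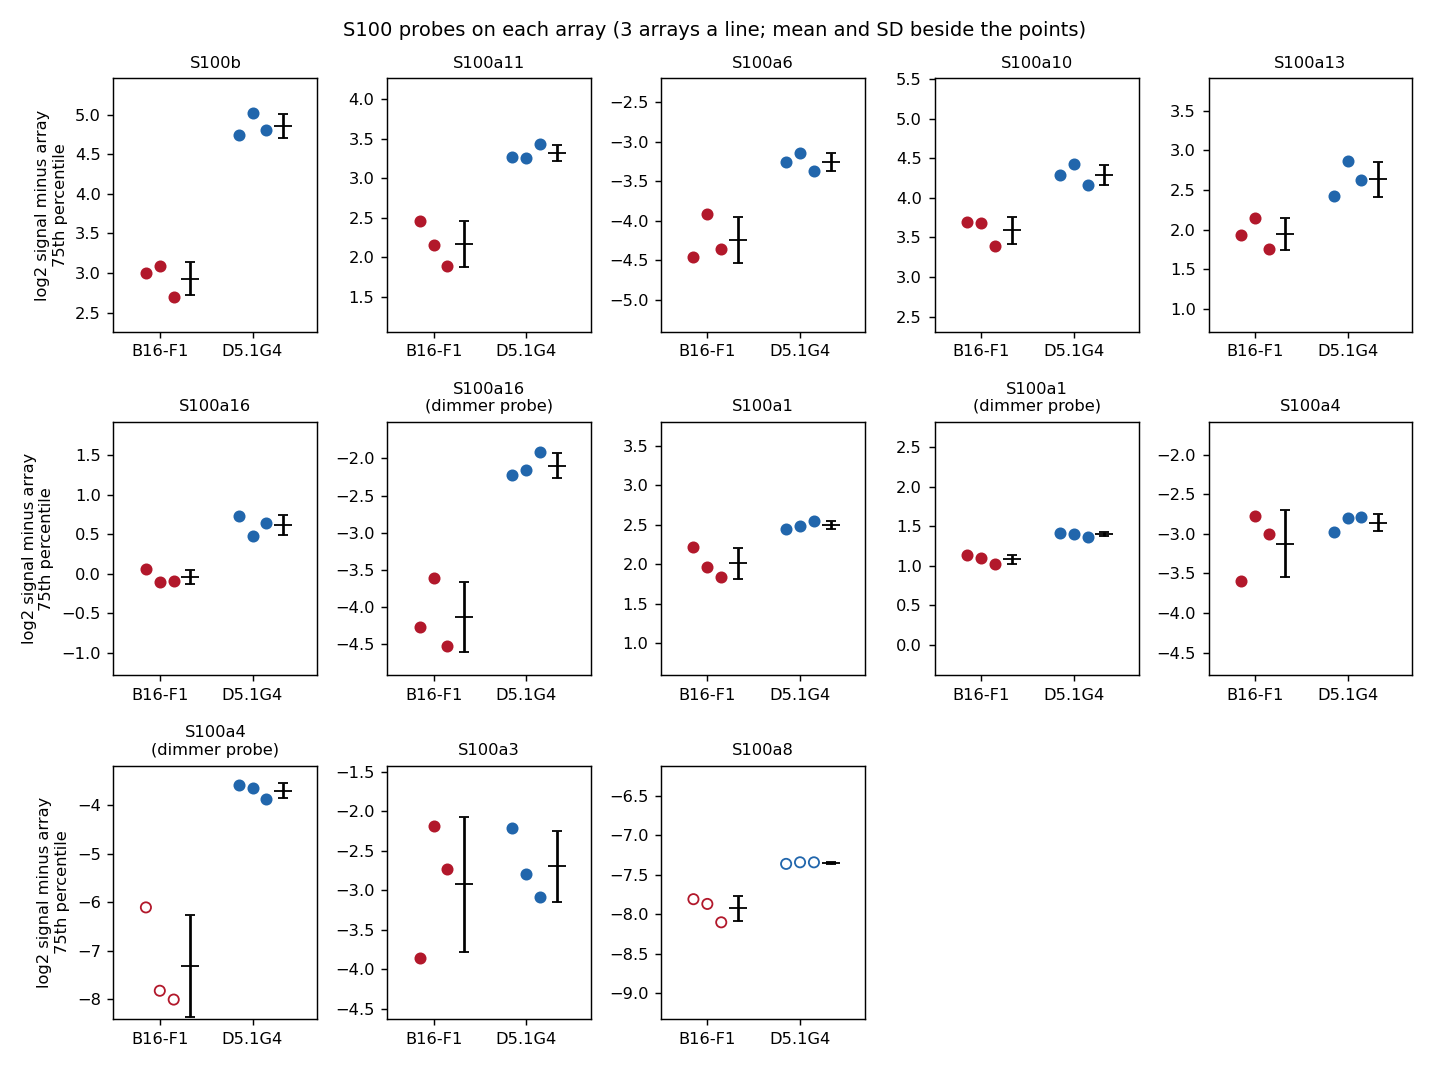
Log2 signal minus the array's 75th percentile (y axis, each panel with its own range) for each of the 13 S100 probes in B16-F1 (red) and D5.1G4 (blue), 1 point per array, with the mean and SD of the 3 arrays beside them; open points are values not well above background. S100b runs from 2.70 to 3.09 in B16-F1 and from 4.74 to 5.02 in D5.1G4, while the points of S100a3 and of the brighter S100a4 probe overlap between the lines.

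The stretches of 250 bases before the RefSeq start sites of S100b and S100a11, the genes called lower, are shown. So are those of S100a6, which lay at the 2-fold limit, and of S100a4, whose probes disagreed. They were taken from RefSeq on GRCm38.p6, which held windows for 9 of the 10 genes (not S100a10), and are written 5′ to 3′ on the gene's strand, all on the plus strand. Capitals mark matches on either strand to an AP-1 element (TGANTCA), an E-box of the melanocyte factor MITF (CACGTG or CATGTG), a SOX element (ACAAAG or ACAATG), a GC box (GGGCGG) or a TATA box (TATAAA); no match overlapped another.
S100b, chr10:76253586-76253835: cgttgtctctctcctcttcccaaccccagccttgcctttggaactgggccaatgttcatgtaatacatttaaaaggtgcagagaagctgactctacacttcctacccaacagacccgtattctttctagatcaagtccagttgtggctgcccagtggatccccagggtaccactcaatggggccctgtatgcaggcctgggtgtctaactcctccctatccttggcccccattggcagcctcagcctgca
S100a11, chr3:93520246-93520495: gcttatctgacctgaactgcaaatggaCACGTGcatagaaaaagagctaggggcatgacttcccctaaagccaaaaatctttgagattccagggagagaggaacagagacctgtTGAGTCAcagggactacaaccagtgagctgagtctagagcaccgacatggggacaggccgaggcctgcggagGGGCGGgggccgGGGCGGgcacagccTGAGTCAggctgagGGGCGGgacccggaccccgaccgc
S100a6, chr3:90612644-90612893: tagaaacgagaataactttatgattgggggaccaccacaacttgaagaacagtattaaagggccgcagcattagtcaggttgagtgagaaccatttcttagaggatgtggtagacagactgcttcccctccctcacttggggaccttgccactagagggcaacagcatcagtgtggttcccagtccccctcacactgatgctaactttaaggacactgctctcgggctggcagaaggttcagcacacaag
S100a4, chr3:90603520-90603769: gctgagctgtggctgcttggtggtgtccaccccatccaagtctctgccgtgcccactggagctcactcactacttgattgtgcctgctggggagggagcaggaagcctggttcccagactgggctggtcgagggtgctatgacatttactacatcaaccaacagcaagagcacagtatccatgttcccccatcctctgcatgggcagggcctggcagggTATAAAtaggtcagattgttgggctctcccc
The S100a11 window held 2 AP-1 elements, starting at -136 and -38 from the start site, 1 E-box at -223 and 3 GC boxes at -64, -52 and -24. The S100a4 window held a TATA box at -31. The windows of S100b and S100a6 held 0 of the 5 motifs. S100a16, whose probes also differed in call, is not shown. Of its windows, 1 held 1 AP-1 element, 1 E-box, 1 SOX element and 1 GC box, and the other held 0 of the motifs. Among all 32851 windows of the same length, 6.75% held the AP-1 element, 17.6% the E-box, 25.2% the SOX element, 32.7% the GC box and 12.4% the TATA box. The letters describe these windows and no binding was measured.

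S100b encodes the S100 protein of glia, Schwann cells and melanocytes, which binds p53 and is released into the blood by melanomas. In B16-F1 it read 3.00, 3.09 and 2.70, in the order of the replicate numbers, which is kept throughout, and in D5.1G4 it read 4.74, 5.02 and 4.81. The groups stood well apart, at 2.93 ± 0.21 in B16-F1 and 4.86 ± 0.15 in D5.1G4 (mean ± SD, n = 3). The log2 difference was -1.93 (SE 0.15, 95% interval -2.30 to -1.56, adjusted p = 0.00039 by limma), a size that 95.2% of the features tested did not exceed. S100b was above background on every array, and across 19 alternative settings its difference ran from -2.01 to -1.78 and it was called in each. From bulk RNA, fewer cells that express a gene and less RNA per cell cannot be told apart.

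S100a1, best known as a regulator of calcium handling in muscle, lies head to head with S100a13 on chromosome 3. Its brighter probe gave 2.22, 1.96 and 1.84 in B16-F1 and 2.45, 2.49 and 2.55 in D5.1G4. The second probe gave 1.14, 1.09 and 1.02 against 1.42, 1.41 and 1.37. Neither probe overlapped between the lines, but both differences were small, -0.48 (SE 0.13, adjusted p = 0.0348 by limma) and -0.32 (SE 0.10, adjusted p = 0.0568 in the fit per probe), and neither reached the minimum fold. The gap between the probes' differences was 0.17, with an exact permutation p of 0.3 (2-sided, 3 against 3 arrays, for which 0.1 is the smallest value possible).

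S100a11, S100a10 and S100a6 encode the members that work with annexins. S100A11 (calgizzarin) binds annexin A1 and takes part in the repair of the plasma membrane. Its values were 2.46, 2.15 and 1.89 in B16-F1 and 3.27, 3.26 and 3.44 in D5.1G4, and no B16-F1 array reached the D5.1G4 range. It was lower by 2.23-fold (log2 difference -1.16, SE 0.17, 95% interval -1.57 to -0.74, adjusted p = 0.00368 by limma). Only the second scan holds both lines, so every fit that takes scan into account, here and for other genes, sets 1 B16-F1 array (replicate 1) against D5.1G4, with the lone array assumed to vary like the others. With scan as a block the difference was -0.89, under the minimum fold (adjusted p = 0.0447), as within the scan that holds both lines (adjusted p = 0.0438), and without the B16-F1 arrays of the first scan it was -0.86 (adjusted p = 0.0592); all of these rest on that 1 array.

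S100A10 (p11) lacks a working calcium site and forms a tetramer with annexin A2 that holds plasminogen and ion channels at the cell surface. Its values were 3.70, 3.68 and 3.40 in B16-F1 and 4.29, 4.42 and 4.17 in D5.1G4. Every D5.1G4 array was above every B16-F1 array, by a modest margin: the log2 difference was -0.70 (SE 0.14, 95% interval -1.04 to -0.37, adjusted p = 0.0103 by limma), a 1.63-fold difference that was not called in any of the 19 alternatives.

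S100A6 (calcyclin) binds annexin A11 and the ubiquitin ligase adaptor CacyBP. The S100a6 probe gave -4.47, -3.92 and -4.35 in B16-F1 and -3.26, -3.14 and -3.37 in D5.1G4. The lines did not overlap, and the difference of -0.99 (SE 0.17, 95% interval -1.41 to -0.57, adjusted p = 0.0068 by limma) fell just short of 2-fold at 1.99-fold. It passed under 7 of 19 alternatives, among them quantile normalization (-1.08), the authors' processed values (-1.06) and scan as a block (-1.21). The probe was dim, with a processed signal between 65.3 and 191.4, and an alternative that took the median signal with normexp and an offset of 50 gave a difference of -0.40 (adjusted p = 0.701). An offset of that size by itself shrinks the fold of a probe this dim, and the changes made together in this alternative, called normexp from here on, were not separated.

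S100a4, also called metastasin and known for binding non-muscle myosin IIA and for promoting motility, gave different answers at its 2 probes. The brighter probe, A_55_P1983450, read -3.60, -2.78 and -3.01 in B16-F1 and -2.98, -2.80 and -2.79 in D5.1G4. These ranges overlapped, and the difference of -0.27 (SE 0.23, 95% interval -0.82 to 0.28, adjusted p = 0.396 by limma) was within the spread of the replicates. B16-F1 replicate 1 was the low array, and within the scan that holds both lines, where it is the only B16-F1 array, the difference was -0.80.

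The other S100a4 probe, A_55_P1983448, stayed near background on all B16-F1 arrays (-6.11, -7.83 and -8.01, none well above it) and was well above it on all D5.1G4 arrays (-3.58, -3.64 and -3.87). It passed the filter through D5.1G4 alone, so its adjusted p (0.00278 in the limma fit per probe) is not read as support. By its signals it was at least 3.89-fold lower in B16-F1. This bound sets the D5.1G4 mean against the higher, on each B16-F1 array, of the probe's own signal and the dimmest signal of any probe well above background. With normexp the difference of this probe was -0.83 (adjusted p = 0.508). A mean over both S100a4 probes takes in these background values, so the call it gives is not counted here as a measured difference.

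S100a16, a widely expressed member, was lower at both probes, by different amounts. Its brighter probe gave 0.06, -0.10 and -0.09 in B16-F1 and 0.74, 0.48 and 0.64 in D5.1G4, a difference of -0.66 (SE 0.12, 95% interval -0.95 to -0.37, adjusted p = 0.00797 by limma). The dimmer probe, A_66_P114627, gave -4.26, -3.61 and -4.51 against -2.23, -2.16 and -1.91. It was called lower by 4.09-fold (-2.03, SE 0.25, adjusted p = 0.00179 in the fit per probe), a call lost with normexp (-1.16, adjusted p = 0.191). No B16-F1 array reached D5.1G4 at either probe, and the gap between the probes was 1.37 (exact permutation p = 0.1, the smallest that 3 against 3 arrays allow). With the mean over both probes the gene was called (-1.35). Within the scan that holds both lines, with 1 B16-F1 array, the brighter probe differed by -0.50.

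Read per probe, 4 of the 12 S100 probes tested were called, all lower in B16-F1, against 15.7% of all 22146 probes tested, with 8.7% lower. One of the 4, the dimmer S100a4 probe, passed the filter through D5.1G4 alone and so had to differ. Of the 11 S100 probes well above background on all 6 arrays 3 were called, those of S100b and S100a11 and the dimmer probe of S100a16. Under that filter 13.6% of all features were called in the fit per gene. Where a gene had 2 probes, the files do not say which part of the transcript each one covers.

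S100a13, which carries fibroblast growth factor 1 and interleukin 1 alpha out of the cell by a route without a signal peptide, read 1.93, 2.15 and 1.75 in B16-F1 and 2.42, 2.87 and 2.62 in D5.1G4. The lines did not overlap, and the difference of -0.69 (SE 0.17, 95% interval -1.10 to -0.28, adjusted p = 0.0225 by limma) was 1.62-fold. S100a13 and S100a1 start close together: their RefSeq starts lie 105 bases apart on opposite strands and their windows share 104 bases. Their differences, -0.69 and -0.48, have 95% intervals that overlap, and the gap between them was not tested.

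S100a3, a cysteine-rich member best known from the hair cuticle, varied more between replicates than between lines. Its values were -3.86, -2.19 and -2.73 in B16-F1 and -2.21, -2.79 and -3.09 in D5.1G4, so the ranges overlapped widely. The lowest values, -3.86, -3.09 and -2.79, were those of the second scan, and the part of scan in this spread was not tested. The difference was -0.23 (SE 0.46, 95% interval -1.34 to 0.88, adjusted p = 0.725 by limma), and the interval covers a 2-fold difference in the lower direction. Without B16-F1 replicate 1 it turned to 0.24 and without D5.1G4 replicate 1 to 0.01. Within the scan that holds both lines, with 1 B16-F1 array, it was -0.92.

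S100a8, which encodes a subunit of the neutrophil protein calprotectin, was not well above background on any of the 6 arrays, with values from -8.10 to -7.34. It was not tested and has no fold. S100a9, the other calprotectin gene, was likewise not well above background on the 6 arrays.

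**Figure D2:**
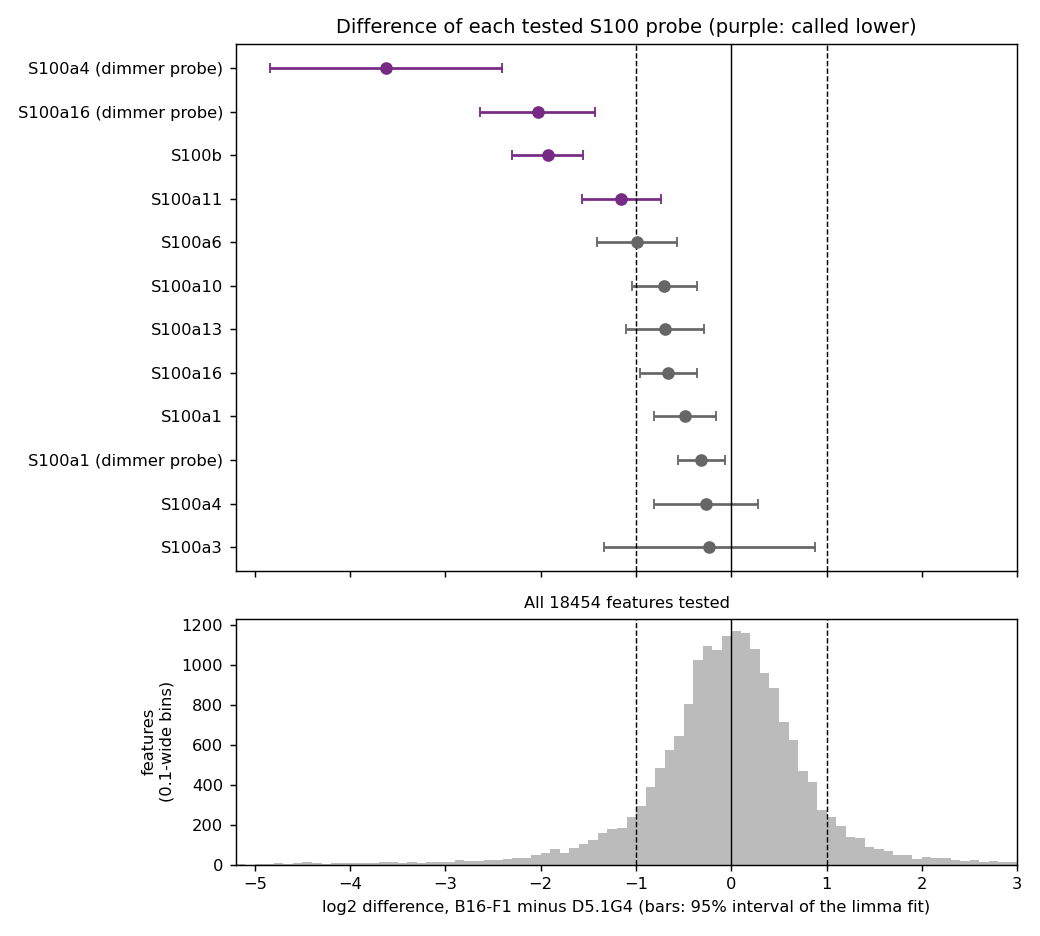
Upper panel: log2 difference (B16-F1 minus D5.1G4, x axis) and 95% interval of the limma fit for the 12 S100 probes tested, purple where called lower; lower panel: the same difference for all 18454 features, in bins 0.1 wide. Dashed lines mark 2-fold. All 12 points lie below 0, from -3.62 (a fitted value at a probe below background in B16-F1, whose bound is at least 3.89-fold) to -0.23.

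Of the other S100 genes, few were measurable. Of 7 further genes on the partner list, S100a5 and S100pbp were tested, and S100a7a, S100a9, S100a14, S100g and S100z were not well above background on any array. S100a5 differed by 0.07 (95% interval -1.16 to 1.29). S100pbp, which is not an S100 gene but encodes a nuclear protein that binds S100P, was lower in B16-F1 (-1.76, SE 0.19, adjusted p = 0.00115 by limma), and its second probe gave -1.52. The S100pbp call was lost with normexp (-1.17, adjusted p = 0.0578). S100a2, added after its values were seen, differed by 0.33 (95% interval -0.85 to 1.52), and S100a7l2 was not above background.

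The neighbours of the S100 genes were read in the same way. In the gene order of chromosome 3, from 5 genes before S100a1 to 5 genes after S100a10, 28 of 80 protein-coding genes were tested. Of the 18 that are not S100 genes 1 was called (5.56%, against 15.2% of all features), 7 had a difference below 0 and the median was 0.28. The called gene was Lce3c, a cornified envelope gene, at least 1.25-fold higher in B16-F1. It passed the filter through B16-F1 alone and so had to differ. The 8 tested S100 genes of the list in this window were all below 0, but S100a2 and S100a5, which lie among them, were not. Of the 71 genes measured in this window, 35 were not well above background on any of the arrays. Around S100b on chromosome 10, 0 of the 8 tested genes among the 5 on each side were called, against 15.2% of all features. The largest difference was that of Zfp280b (-0.70). Of these 8 genes 6 had a difference below 0, against 50.3% of all features, and their median was -0.34.

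**Figure D3:**
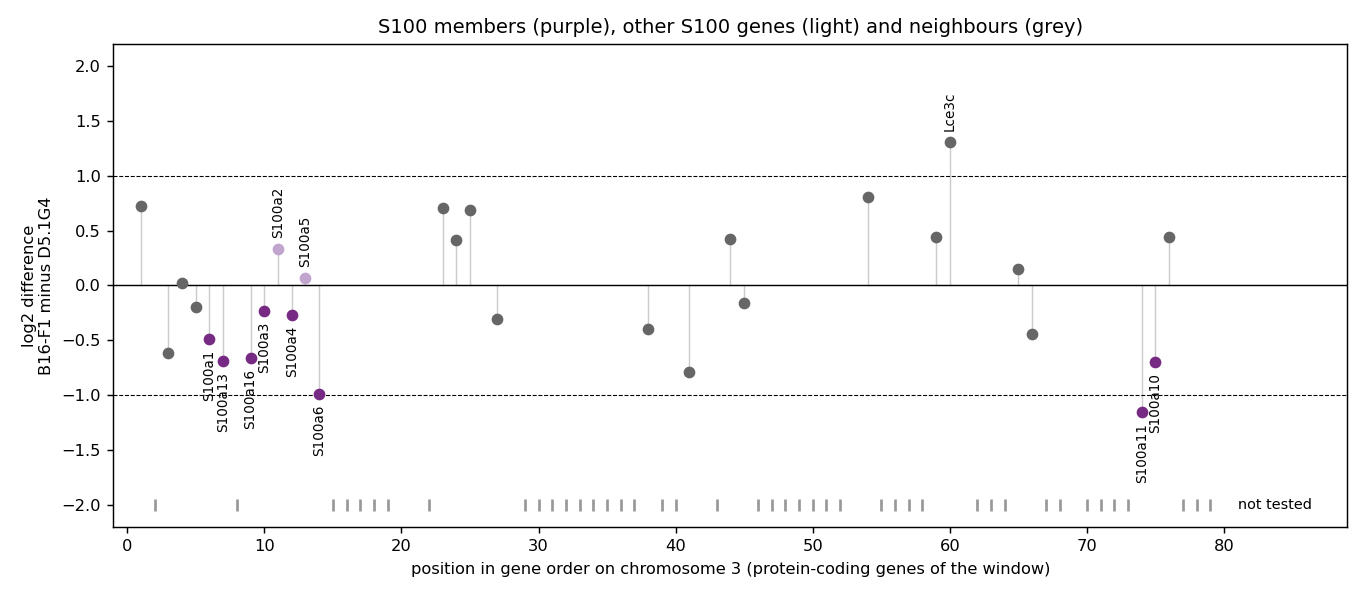
Log2 difference (B16-F1 minus D5.1G4, y axis) of each tested gene against its place in the gene order on chromosome 3 (x axis, counted from 5 genes before S100a1), with listed S100 genes in purple, other S100 genes in light purple, other genes in grey and measured genes not tested as ticks. The listed S100 genes lie between -1.16 and -0.23, and Lce3c is the one gene above 1, at a fitted value whose bound is at least 1.25-fold.

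The binding partners were read from a list of 52 genes that bind, receive or act with S100 proteins. Of 34 tested, 9 were called lower and 2 higher in B16-F1 (32.4%, against 15.2% of all features), with a median difference of -0.12. Where all 6 arrays had to be well above background, 31 were tested, and 9 were called lower and 1 higher. Under that filter 13.6% of all features were called. The list was chosen with earlier results of these data known. Among the annexins and AHNAK 5 of 7 tested were called lower, 0 higher, and the median was -1.32.

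Annexins are calcium-dependent membrane-binding proteins. Anxa1, a partner of S100A11, fell by 1.93 (SE 0.20, adjusted p = 0.00106 by limma), and its second probe gave -2.06. Anxa2, the partner of S100A10, fell by 1.15 (SE 0.14, adjusted p = 0.00175). The Anxa2 call was lost in 5 of 19 alternatives, among them quantile normalization (-0.96), the authors' processed values (-0.96) and scan as a block (-0.99). Anxa6 and Anxa5 fell by 1.64 (SE 0.23) and 1.32 (SE 0.19). The Anxa5 call was lost without the B16-F1 arrays of the first scan (-1.17, adjusted p = 0.0636). Ahnak, a giant scaffold protein bound by the annexin A2 and S100A10 complex, fell by 2.48 (SE 0.28, adjusted p = 0.00141), with -4.25 at a second probe. Anxa11, a partner of S100A6, differed by 0.07 (95% interval -0.28 to 0.42), and Anxa7 by -0.88, where another probe gave -0.02.

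Set side by side, the pairs read as follows: S100a10 at -0.70 with Anxa2 at -1.15, S100a11 at -1.16 with Anxa1 at -1.93, and S100a6 at -0.99 with Anxa11 at 0.07. Each S100 gene is set beside a single annexin here, and other pairings were not read. The difference between the members of a pair was not tested.

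Among receptors and signalling genes 1 of 4 tested was called (25%, against 15.2% of all features). Alcam, an adhesion molecule that binds S100B, fell by 1.34 (SE 0.11, adjusted p = 0.000514 by limma). Ager, which encodes RAGE, was not well above background on the 6 arrays. Tlr4, a receptor of calprotectin, differed by -0.12 (95% interval -0.51 to 0.28).

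Of 16 tested intracellular targets 3 were called (18.8%, near the 15.2% of all features), 1 lower and 2 higher, and 1 of the latter, Gfap, passed the filter through B16-F1 alone. Tuba1a, an alpha-tubulin gene, fell by 1.22 (SE 0.16, adjusted p = 0.00245 by limma). Mdm4, an inhibitor of p53, rose by 1.13 (SE 0.16, adjusted p = 0.00347), and Gfap, the glial intermediate filament that S100B binds, was not above background in D5.1G4 and in B16-F1 exceeded it by a bound of at least 1.37-fold. The Gfap call was lost in 6 of 18 alternatives, among them quantile normalization (0.98) and normexp (0.51), and the Mdm4 call in 3 of 19, among them normexp (0.85). Myh9, the myosin heavy chain bound by S100A4, differed by 0.49 (95% interval 0.16 to 0.81, adjusted p = 0.0331) and was under the minimum fold, and Cacybp by 0.65 on 1 measured D5.1G4 array (adjusted p = 0.109). Trp53 and Mdm2 differed by 0.66 and -0.81, without a call.

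The only tested channel gene, Asic1, an acid-sensing channel that S100A10 carries to the cell surface, fell by 2.84 (SE 0.16, adjusted p = 0.000129 by limma), a call lost with normexp (-1.55, adjusted p = 0.104). The 3 tested genes of the plasminogen system (Plgrkt, Plat and Plaur) and the export partner Fgf1 were not called.

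**Figure D4:**
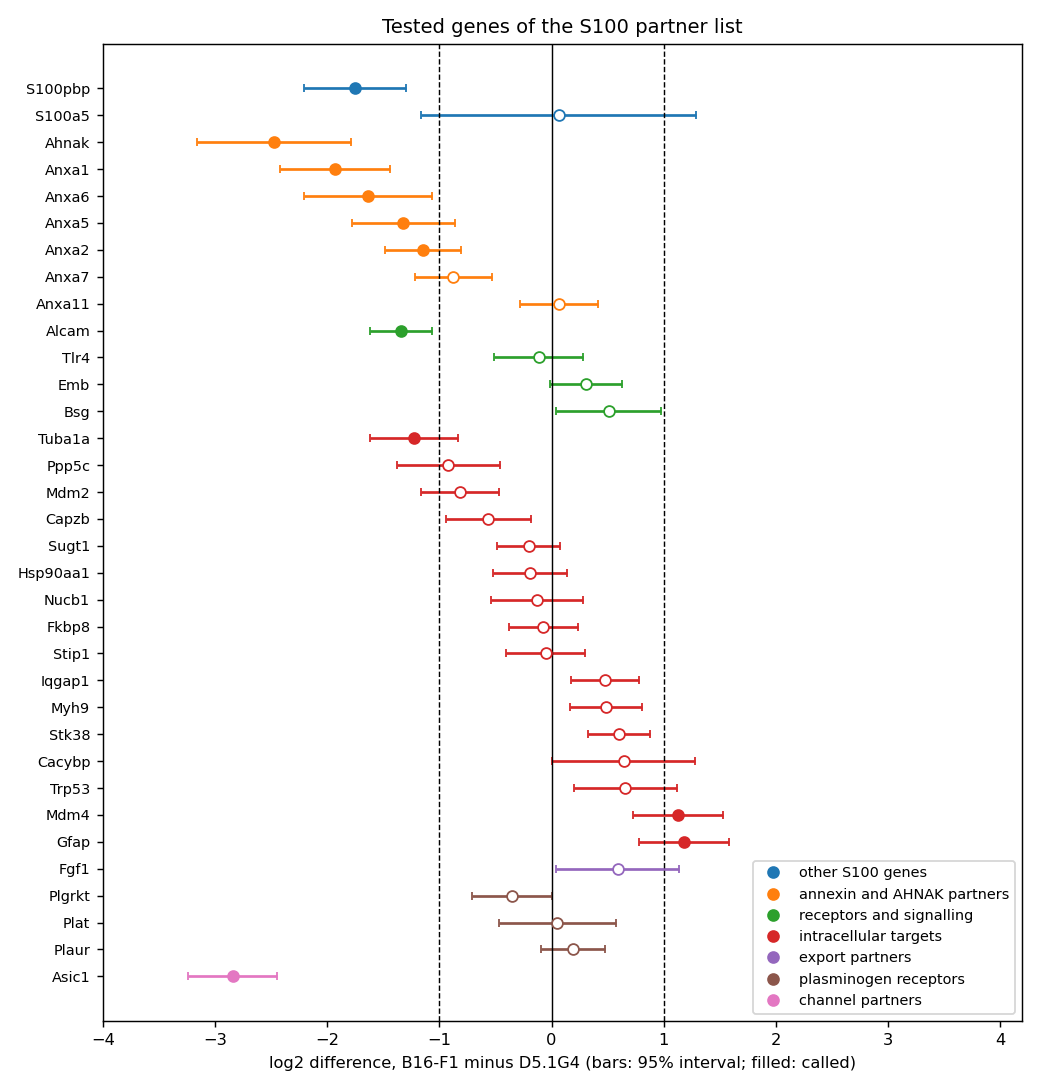
Log2 difference (B16-F1 minus D5.1G4, x axis) with its 95% interval for the 34 tested genes of the partner list, coloured by group and filled where called. The annexin and AHNAK group holds 5 filled points, all below -1, from Anxa2 at -1.15 to Ahnak at -2.48; the value of Gfap is a fitted one, with a bound of at least 1.37-fold.

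Over the 6 arrays the patterns most like that of S100b, among 12070 named genes, were those of Armc9, Oscp1 and Impa2, each with a Pearson r of 0.999. They differed by -1.91, -1.64 and -0.93. The points are 6 arrays in 2 groups, so any gene with a clear difference of this direction comes near, and the correlation is a description.

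Both lines had the RNA of melanocytic cells. All 10 melanocyte lineage markers, Mitf, Sox10, Pmel, Tyr, Tyrp1, Dct, Mlana, Gpr143, Mlph and Slc45a2, passed the background criterion on each of the 6 arrays. Of these 1 was called (10%, against 15.2% of all features). It was Slc45a2, a melanosome transporter, which was higher in B16-F1 (1.22, adjusted p = 0.000778 by limma). The others, 5 below 0 and 4 above, ran from -0.68 (Mlana) to 0.83 (Gpr143), with Tyr at 0.78 and Sox10 at 0.15. The log2 of the summed marker level was 8.94 to 9.24 in B16-F1 and 9.20 to 9.67 in D5.1G4. Of 10 measured neutrophil and myeloid markers, Mpo, Ltf and Lyz2 were not above background on any array, and Elane, Itgam, Csf3r and Csf1r were well above it on all 6. Of the 10, 6 were tested and 0 called, against 15.2% of all features. Of these 6 differences 2 were below 0, those of Csf3r and Elane, and 4 above, with a median of 0.17. Csf3r, a receptor of neutrophil precursors, differed by -0.61 (adjusted p = 0.0169 by limma) with no overlap. It ran from 2.05 to 2.36 in B16-F1 and from 2.72 to 2.99 in D5.1G4. Elane, neutrophil elastase, differed by -0.36 (adjusted p = 0.0562 by limma), also with no overlap. Of all features measured on the 6 arrays, 50.7% did not overlap, and 28.5% had all B16-F1 values below all D5.1G4 values. The myeloid list had summed levels of 2.72 to 3.13 in B16-F1 and 3.23 to 3.43 in D5.1G4. Of 6 fibroblast markers 4 were not above background on any array, and Col1a2 alone was tested (-3.74, adjusted p = 3.33e-05). The summed level was -2.31 to -2.01 in B16-F1 and 1.09 to 1.27 in D5.1G4. Such a sum is taken on the linear scale, so the brightest genes of a list weigh most in it. Of the keratinocyte, endothelial and muscle markers 3 of 7, 3 of 5 and 1 of 4 were tested and 0 were called. The part of other cell types in the S100 differences was not tested.

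The S100 differences kept their sign under most of 19 alternative ways of processing the arrays. S100b, S100a10, S100a13, S100a16, S100a1, S100a6 and S100a11 stayed below 0 in every alternative tried, as did both S100a4 probes, and S100a3 alone changed sign. Alternatives that changed only the filter, the handling of the variance, the replicate block or the adjustment of p could not move these differences. Scan as a block and the scan that holds both lines give the same difference. The 19 alternatives are therefore not 19 separate checks of the sign. The number of genes called was 2 to 4, the highest with means over probes, which for S100a4 include a probe not above background in B16-F1.

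**Figure D5:**
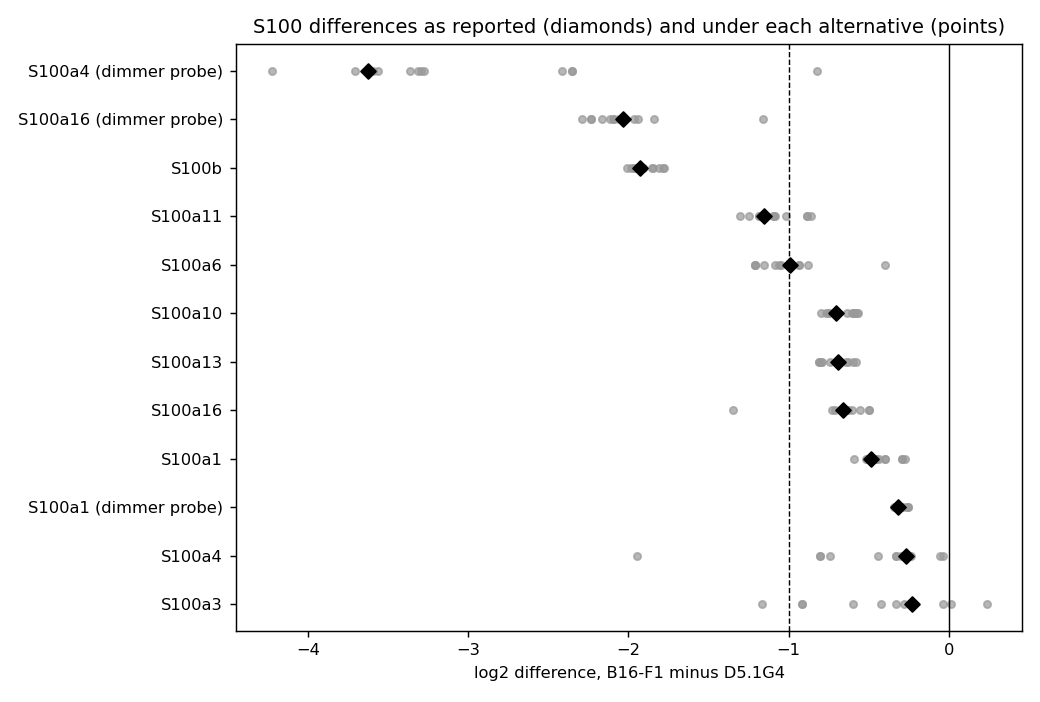
Log2 difference (B16-F1 minus D5.1G4, x axis) of each S100 gene and of the dimmer probes as reported (diamond) and under each alternative setting (points); the dashed line marks 2-fold. S100b stays between -2.01 and -1.78, while S100a3 ranges from -1.16 to 0.24.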

How the data were processed

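RNA of 6 samples was measured, 3 arrays for each line. The deposited scanner files, written by Feature Extraction 11.0.1.1 per the file headers, hold linear intensity values of Cy3 for every spot. The authors' processed table holds log2 values for 22147 probes, as its values show (r of at least 0.999 with the log2 signal of the same array); the normalization behind it is not stated in the labels or headers used here. All its sample columns were mapped.

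The log2 of the processed intensity minus the array's 75th percentile was taken. Spots marked non-uniform or outlying (0.674% to 1.58%) were left out; no spot was saturated. Accessions were matched to the RefSeq table of GRCm38.p6, which named 27234 of 39429 probes (69.1%); the array's own annotation is on another build, so coordinates are given only for RefSeq windows. The brightest probe stood for a gene. Features above background on at least 3 of 6 arrays were tested with limma 3.58.1 in R 4.3.3 (lmFit, eBayes), the same fit was run per probe, and it was tested on simulated data. The files have no mean signal column, so normexp used the median signal in place of the planned one. Scan time, per the file headers, was the batch tried. The number of arrays limits the precision.

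All members and their probes are named; from the partner list, called genes up to 12 and Ager, Anxa2, Anxa1, Ahnak, Tlr4, Myh9, Cacybp and S100a9 are named, with others to complete a count. Members and lists were chosen with earlier results of these data known. The list of Schwann cell and glial markers is not reported here.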

Additional observations from a re-analysis of the deposited data

How the results depend on the processing

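Calls of S100 genes numbered 2 under most settings, 3 with quantile normalization or the authors' values (S100a6 added), and 4 with the mean over the probes of a gene (S100a4 and S100a16 added; the S100a4 mean includes a probe not above background in B16-F1). Normexp on the median signal with an offset of 50, chosen after seeing the data, called 2 S100 probes in place of 4 and 1250 features in place of 2801; dim probes are limited by their signal over background. Without both B16-F1 arrays of the first scan, also chosen after seeing the data, 7 partner genes were called in place of 11. Leaving out 1 array at a time gave 2 to 3 S100 genes, 4 to 5 S100 probes, 11 to 12 partner genes and 2531 to 3379 features, the highest without B16-F1 replicate 1, and differences of -0.60 to 0.24 for S100a3, the only one to change sign. With scan as a block, or within the scan that holds both lines, S100a6 was called and S100a11 was not, with 1 B16-F1 array behind the line difference, and the median difference of all features moved to -0.15. With the replicate number as a block 2 S100 genes and 2584 features were called; deviations of arrays with the same number correlated at -0.39, -0.03 and -0.30, 0 of 6 arrays correlated best with their own number, and the samples share only a number. The planned normexp on the mean signal was not run.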
